A study of Macaca mulatta with 51 samples.

Results

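Gastrocnemius skeletal muscle (SM) of diet-induced obese rhesus macaques was compared after fibroblast growth factor 21 (FGF21) treatment with the same muscle before it. The comparison used every SM library with counts that the labels place pre-treatment (6 libraries) or post-treatment (8 libraries), 14 of the 48 libraries of the series. Animals 19832, 20275, 21189, 22130, 23004 and 24849 had both samples, so a change within an animal could be computed for 6 animals, while animals 20456 and 21866 had a post-treatment library only. The main fit held a term for animal, which takes up the single SM library of 21866, so that library does not inform the fold change. Animal 20456 informs it only through its washout library. The cohort held 10 obese, non-diabetic macaques aged 11 to 22 years, 5 males and 5 ovariectomized females, fed a high-fat diet over 2 or more years beforehand. They received native human FGF21 by daily subcutaneous injection for 12 weeks, at 10 ug/kg/day at first and up to 1000 ug/kg/day, with 1 animal held at 300 ug/kg/day. Biopsies were taken before the first dose, after the 12 weeks, and again 16 weeks after treatment ended (washout). No untreated animals were followed in parallel, so FGF21, weight loss, repeated biopsy and the passage of time cannot be told apart in these samples.

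FGF21 is a hormone that signals through FGF receptors only where the co-receptor beta-klotho (KLB) is present, which is why adipose tissue (AT) is regarded as a direct target and muscle mostly as an indirect one. Receptor activation runs through the MAP kinase ERK to ETS transcription factors and to a set of feedback inhibitors. Muscle is nonetheless a large consumer of glucose and fatty acids, and its slow fibers, rich in mitochondria, and fast fibers, rich in glycolytic enzymes, carry different myosins. Around the fibers lies connective tissue of collagens made by fibroblasts, and injured fibers are rebuilt from satellite cells that pass through an embryonic program of contractile genes.

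Total counts on genes ranged from 14455195 to 20292476 in the pre-treatment and from 15594276 to 21740711 in the post-treatment libraries. The 47 slow, fast and sarcomere genes of the contractile lists, which define muscle, took 16.5% to 34.4% of the counts of each library. By this share the libraries had the makeup of muscle. The adipocyte hormone gene ADIPOQ lay between 0.874 and 128 CPM (counts per 1000000 counts of a TMM-scaled library). ADIPOQ was highest in the pre- and post-treatment libraries of 24849, at 128 and 123 CPM. The first principal component of log2 CPM over the 14 libraries held 45.2% of the variance, and the second 10.4%. Post-treatment libraries were spread along the first component with an SD of 69.8, against 23.3 for the pre-treatment libraries. The post-treatment libraries of animals 21189 and 21866 lay at the upper end, at 108 and 78.0, and that of 19832 at the lower end, at -72.2. In the same 3 libraries, collagen and matrix genes took 7.00%, 3.63% and 0.0865% of the counts, against 0.154% to 1.09% in the pre-treatment libraries. Sample identifiers fall into 3 number series, here called first, middle and last, whose meaning the labels do not give, and only in animal 22130 did both samples carry an identifier of the same series. In a fit with this series as a term, edgeR's quasi-likelihood test called 690 genes (5.47% of those tested) between the last and first series, 221 of them higher and 469 lower. For the other 5 animals series and time point cannot be told apart within the animal.

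**Figure D1:**
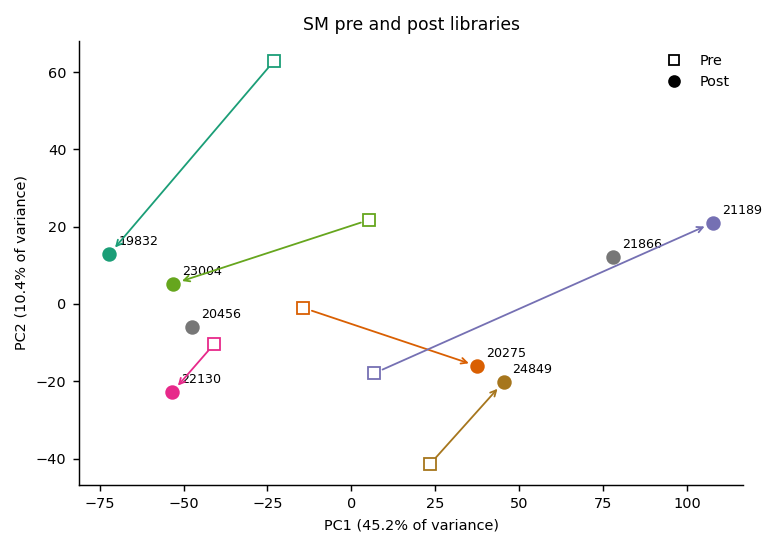
First 2 principal components of log2 CPM for the 14 SM libraries, with open squares for pre-treatment, filled circles for post-treatment, an arrow from pre to post for each of the 6 animals with both, and gray circles for the 2 animals with a post-treatment library only. The arrows of 20275, 21189 and 24849 point to the right and those of 19832, 22130 and 23004 to the left, and the post-treatment libraries are spread more widely along PC1 (SD 69.8) than the pre-treatment ones (SD 23.3).

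The main comparison asked which of the expressed genes differed between post- and pre-treatment muscle. Of 12617 genes tested, 0 were differentially expressed (DE), which required both a log2 fold change larger than 0.26 in size and an adjusted p below 0.05 (0% called). The smallest adjusted p was 0.939 with edgeR's quasi-likelihood test and Benjamini-Hochberg adjustment, 0.104 with DESeq2 and 0.894 with voomWithQualityWeights, and neither of the other tools called a gene. At an unadjusted p under 0.05 stood 410 genes, or 3.25% of those tested, with 145 higher (1.15%) and 265 lower (2.10%). DESeq2 placed 388 and voomWithQualityWeights 649 genes under the same limit. Fitted log2 fold changes were above 0 for 5835 genes, or 46.2%, a share that moved to 57.6% when libraries were scaled by their totals alone.

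Most fitted changes were small and their errors were larger. The median log2 fold change was -0.02, the median of its absolute value 0.14, and 5% to 95% of the genes lay between -0.47 and 0.53. The median SE was 0.23 and the 95% interval reached a median of 0.48 to either side, both on the log2 scale. The interval lay wholly between -1 and 1, that is, short of a doubling in either direction, for 9340 genes (74.0%). This share depended on the level of the gene, at 13% of 1441 genes with a mean below 1 CPM, 65.1% of 3852 genes from 1 to 10 CPM, 90.5% of 5950 genes from 10 to 100 CPM and 91.6% of 1374 genes at 100 CPM or more. Thus for most genes above 10 CPM a doubling of the average across animals lay outside the interval, and for most genes below 1 CPM it lay inside.

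**Figure D2:**
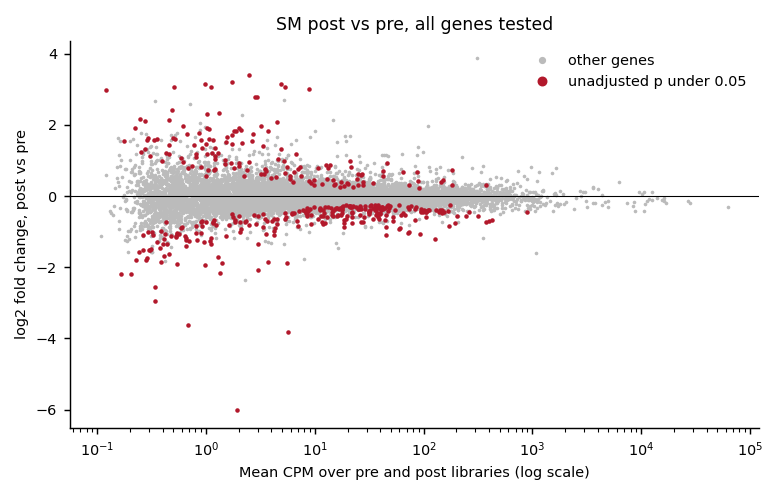
Fitted log2 fold change (post vs pre) of each of the 12617 genes against its mean CPM over the 14 libraries on a log axis, with the 410 genes at an unadjusted p under 0.05 in red. Fold changes narrow with rising level, 297 genes lie beyond 1 in either direction, and none has an adjusted p under 0.05.

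Within single animals the muscle differed between biopsies by far more than these averages. The root mean square log2 change over genes ranged from 0.63 in animal 24849 to 1.18 in animal 21189, and between 1111 genes (22130) and 4029 genes (21189) moved by more than 1 on the log2 scale within 1 animal. For most genes the changes did not point the same way in all 6 animals. For 12207 genes (96.8%) the SD of the change between the 6 animals was larger than the size of its mean, and the median SD was 0.59. With 6 animals most genes without any shared change would also meet this SD rule, so it does not by itself show disagreement. A change in the same direction in all 6 animals (each larger than 1e-09 in size) was seen for 249 genes (1.97%), 65 higher and 184 lower, of which 112 were at an unadjusted p under 0.05. Pre- and post-treatment libraries did not overlap for 1 gene (0.00793%), MRE11, which codes for a nuclease of DNA break repair and is named after its values were seen. Its expression was 6.51 to 9.65 CPM pre-treatment and 9.80 to 12.3 CPM post-treatment, with a log2 fold change of 0.31 (SE 0.14).

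The gene-wise changes of 2 animals were compared by Pearson's r over all tested genes, as a description, since genes are not independent replicates. Over 15 pairs of animals the median r was -0.11, with 5 positive and 10 negative values between -0.41 and 0.45. The highest values joined 20275 with 21189 (0.45), 19832 with 23004 (0.43) and 21189 with 24849 (0.38), and the lowest joined 19832 with 21189 (-0.41). The identifier series changed from last to first in 19832 and 20275, whose changes had an r of -0.14, and from first to last in 21189 and 24849. In AT, 36 pairs of 9 animals had a median r of 0.23, with 34 positive values. For the 5 animals with both biopsies of both tissues, 3 of 10 pairs were positive in SM (median -0.09) and 9 of 10 in AT (median 0.26). The size of the changes did not separate the tissues in these 5 animals. Over 12322 genes tested in both, the root mean square log2 change averaged 0.78 in SM and 0.73 in AT, a difference of 0.06 ± 0.38 (SD, n = 5), higher in SM in 3 animals (exact sign-flip permutation test, two-sided, p = 0.688, where the smallest possible is 0.0625). Over all animals with both biopsies, the median SD of the change between animals was 0.58 in SM and 0.37 in AT for the same genes, and larger in SM for 77.1% of them.

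**Figure D3:**
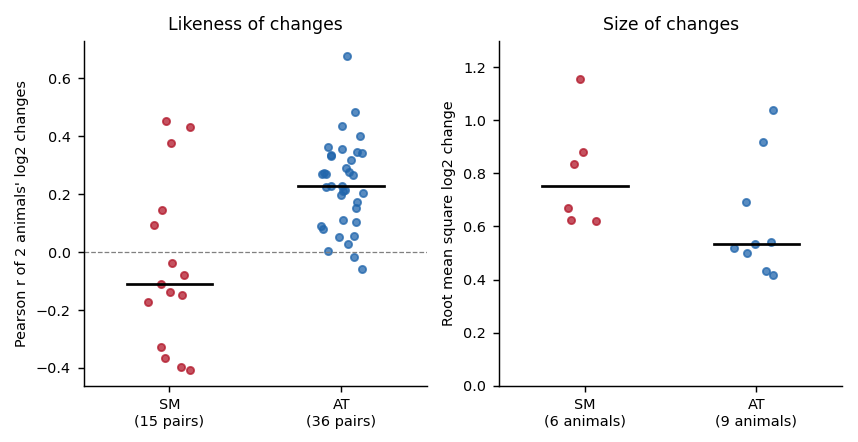
Left, Pearson r over genes between the post minus pre log2 changes of 2 animals, 1 point per pair, for SM (15 pairs) and AT (36 pairs); right, root mean square log2 change over the 12322 shared genes, 1 point per animal; black lines mark medians. Pairs in SM lie mostly below 0 (median -0.11) and pairs in AT mostly above it (median 0.23), while the sizes of the changes overlap between the tissues.

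The ligand and receptors of FGF21 were measured first, since they set which tissue can respond directly. FGF21 itself (ENSG00000105550) did not pass the filter of 0.5 CPM and had at most 14 counts in any SM library. KLB (ENSG00000134962) was at 0 to 3.34 CPM pre-treatment (median 0.384) and 0 to 2.84 CPM post-treatment (median 0.531), and animal 24849 was highest at both times. The other pre- and post-treatment libraries held at most 0.777 CPM. The libraries of 24849 also had the highest ADIPOQ, at 128 and 123 CPM, and the part of adipocytes in these KLB values was not tested. The log2 fold change of KLB was 0.26 (SE 0.54), with a 95% interval from -0.88 to 1.40, and KLB was higher in 4 of 6 animals. FGFR1, the receptor that FGF21 uses with beta-klotho, was at 26.7 to 79.1 CPM (median 47.2) before and 21.5 to 117 CPM (median 49.4) after treatment. The fold change of FGFR1 was 0.04 (SE 0.37), with 3 animals higher and 3 lower and overlapping groups. FGFR4 had values of -0.18 (SE 0.33), FGFR2 of 0.62 (SE 0.50) and FGFR3 of 0.18 (SE 0.31), and KL, the klotho gene, of -0.06 (SE 0.66) at no more than 36 counts in a library. The signs of KLB, KL, FGFR1, FGFR3 and FGFR4 turned under at least 1 alternative setting.

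Of 14 ERK feedback and target genes, unadjusted p lay under 0.05 for 2 with higher and 1 with lower expression (1.15% and 2.10% of all genes). The median log2 fold change was 0.30 against -0.02 for all genes, and lay between -0.11 and 0.52 over 20 alternative settings. ETV4 (ENSG00000175832), an ETS factor induced by FGF receptor and ERK signaling in many tissues, was at 0.232, 1.0, 1.52, 0.665, 0.979 and 0.884 CPM pre-treatment in animals 19832, 20275, 21189, 22130, 23004 and 24849. Post-treatment it was at 1.96, 1.99, 15.4, 3.21, 1.18 and 3.78 CPM in the same order, and at 2.83 and 9.08 CPM in 20456 and 21866. All 6 animals were higher post-treatment, and only the lowest post-treatment library fell within the pre-treatment range. The lowest pre-treatment library, that of 19832, held 3 counts. The 2 highest, the post-treatment libraries of 21189 and 21866, also had the largest shares of collagen and matrix genes (7.00% and 3.63% of counts). The part of biopsy makeup in the ETV4 values was not tested. The washout libraries were at 0.367 to 1.74 CPM. The log2 fold change was 1.97 (SE 0.43, 95% interval 1.05 to 2.89). With edgeR's quasi-likelihood test the unadjusted p of 0.000372 was the smallest among genes averaging 1 CPM or more and higher in all 6. The adjusted p of 0.939 in that test did not pass. Sprouty genes, which dampen receptor tyrosine kinase signals, did not share this pattern. SPRY1 had a log2 fold change of -0.20 (SE 0.17) and was higher in 2 animals, and SPRY2 one of -0.07 (SE 0.16). SPRED3, another inhibitor of the pathway, was at most at 1.63 CPM and had a value of -2.94 (SE 0.73), with the 2 highest pre-treatment libraries in 19832 and 23004. Immediate early genes, which respond within minutes to stimulation or handling of tissue, had a median of -0.14 over 21 genes. NR4A1, an orphan nuclear receptor of this group, ranged from 95.9 to 520.1 CPM before and from 80.2 to 246 CPM after treatment (log2 fold change -0.75, SE 0.35) and was lower in 5 of 6 animals.

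Other genes with the same direction in all 6 animals covered several functions, and none passed the adjusted test. PRRX1, a mesenchymal homeobox factor, lay at 48.7 to 218 CPM pre-treatment (median 116) and at 100.1 to 351 CPM post-treatment (median 229), with a log2 fold change of 0.73 (SE 0.24). The groups overlapped, since the highest pre-treatment libraries (20275 and 24849) lay above the lowest post-treatment ones. PRSS35, a protease-like secreted protein, had a value of 1.54 (SE 0.44) and ZNF572, a zinc finger gene, one of 0.74 (SE 0.29), both at low levels. CEP120, a centriole protein, PLCB4, a phospholipase C, FCHSD2, a membrane-shaping protein, and the ribosomal gene RPL15 were each higher by 0.31 to 0.49 on the log2 scale. Of the genes averaging 1 CPM or more and lower in all 6, MAPRE3 (ENSG00000084764) had the smallest unadjusted p after LTF (0.000323). MAPRE3 codes for a protein of growing microtubule ends. It was at 103, 71.3, 133, 143, 127 and 75.8 CPM before and 57.3, 57.0, 75.3, 71.7, 71.5 and 60.3 CPM after treatment in animals 19832, 20275, 21189, 22130, 23004 and 24849. The post-treatment-only libraries were at 67.7 and 45.2 CPM, the groups overlapped by a few CPM, and the log2 fold change was -0.68 (SE 0.15, 95% interval -0.99 to -0.37). The sugar-phosphate transporter gene SLC37A1 (-0.80, SE 0.19) and the receptor gene GPRC5C (-0.86, SE 0.21) were similarly placed, at 12.4 to 19.8 against 4.91 to 12.5 CPM and at 45.5 to 91.1 against 18.5 to 46.2 CPM. The amino acid transporter SLC43A1, the anion exchanger SLC26A4, CRELD1 and CSMD1 had values from -0.33 to -1.01. LTF, the neutrophil granule protein lactoferrin, had the smallest unadjusted p of these lower genes (0.000113) and a log2 fold change of -1.87 (SE 0.37). It was at 6.51 and 4.52 CPM in the pre-treatment libraries of 19832 and 23004, and at no more than 1.32 CPM in the other pre-treatment libraries. Of 7 neutrophil marker genes tested, 6 were lower and 2 of them at an unadjusted p under 0.05 (background 2.10%). Neutrophil markers summed to 0.000235% to 0.00156% of counts before and 0.000133% to 0.00147% after treatment.

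**Figure D4:**
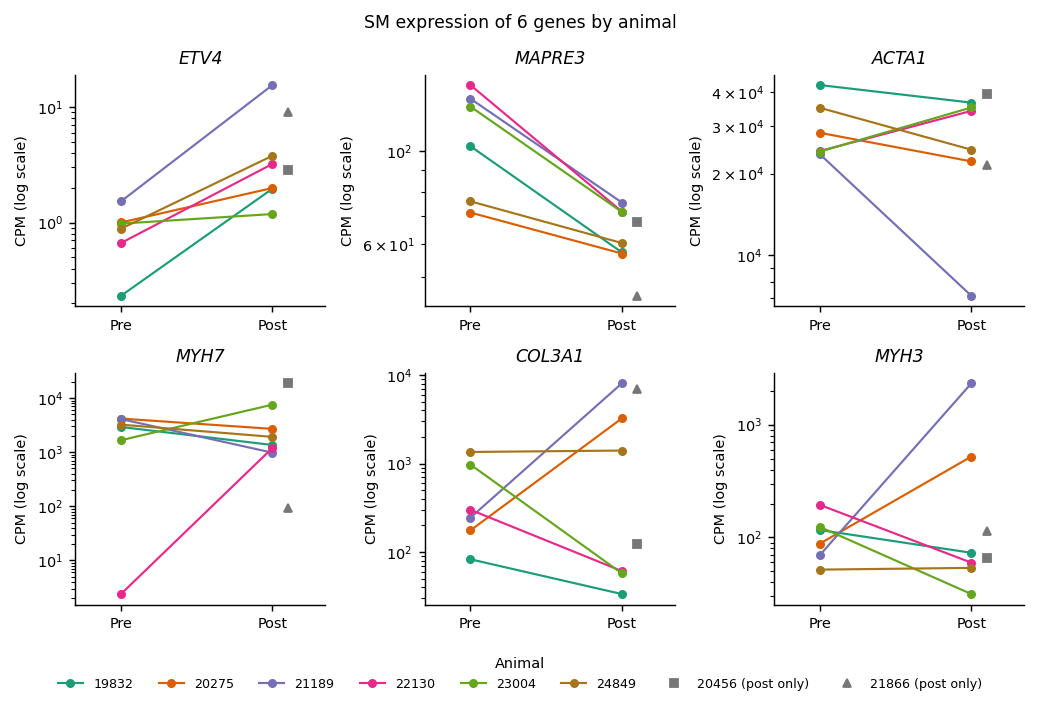
CPM on a log axis of ETV4, MAPRE3, ACTA1, MYH7, COL3A1 and MYH3 in SM before and after treatment, with 1 colored line for each of the 6 animals with both samples and gray symbols for the 2 animals with a post-treatment library only. ETV4 is higher and MAPRE3 lower in every animal, while the other 4 genes move in both directions, with COL3A1 at 8050.1 CPM in 21189 and 33.6 CPM in 19832 post-treatment.

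To see whether pathways moved as groups where single genes did not pass the test, 51 lists of pathway and cell marker genes, 906 tested genes in all, were described by counts, medians and the mean change in each animal. Of the 51 lists, 50 had a mean change above 0 in some animals and below 0 in others, and in 50 the SD over animals exceeded the size of the mean. With 6 animals both outcomes are usual for lists without a shared change, so these counts are descriptive. The hypoxia genes, targets of the HIF factors, were the exception in direction, with mean changes of 0.01 to 0.29 in the 6 animals and a median log2 fold change of 0.09 over 15 genes. Scaling by library totals alone turned the sign of the medians of 7 lists, namely heat shock, fatty acid uptake and storage, insulin signaling and GLUT4, mitochondrial ribosome, integrated stress response, proliferation and fibroblast markers, whose medians lay between -0.12 and -0.01 with TMM scaling. Over all alternatives, 40 of 50 list medians changed sign at least once.

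**Figure D5:**
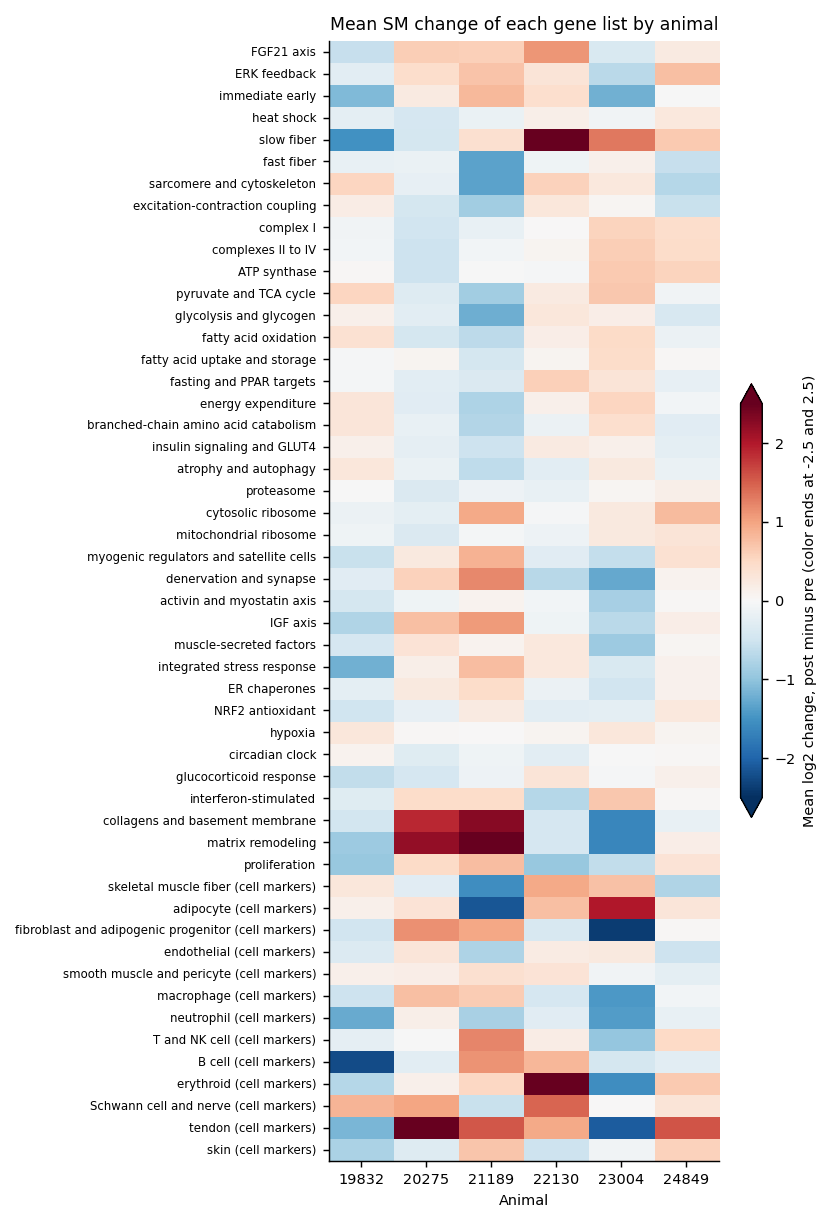
Mean log2 change (post minus pre) of the tested genes of each of the 51 lists in each of the 6 animals with both SM samples, in red where higher and blue where lower post-treatment, with the color scale ending at -2.5 and 2.5. Most rows hold both colors. Collagen and matrix lists are red in 20275 and 21189 and blue in 19832, 22130 and 23004, and slow fiber genes are darkest red in 22130 and blue in 19832.

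Connective tissue genes moved far in opposite directions in different animals. Of 20 collagen and basement membrane genes 15 had a fold change above 0, with a median of 0.27, none at an unadjusted p under 0.05, and over 20 alternative settings the median lay between -0.27 and 0.69. By animal, their mean log2 change was -0.47 in 19832, 1.89 in 20275, 2.27 in 21189, -0.42 in 22130, -1.64 in 23004 and -0.19 in 24849. COL3A1 (ENSG00000168542), a fibrillar collagen of soft connective tissue, went from 176 to 3235 CPM in 20275 and from 244 to 8050.1 CPM in 21189, and from 973 to 57.4 CPM in 23004. It was at 82.9, 300.3 and 1350.0 CPM before and 33.6, 61 and 1401 CPM after treatment in 19832, 22130 and 24849. The post-treatment range of 33.6 to 8050.1 CPM thus enclosed the pre-treatment range of 82.9 to 1350.0 CPM, and the fitted value of 0.78 had an SE of 1.29. COL1A2 had 0.66 (SE 1.32) and FN1, the gene of the matrix protein fibronectin, 0.72 (SE 1.08). The largest fitted increase of any gene belonged to POSTN, which codes for periostin, a matrix protein of growing and healing connective tissue, and is named for that rank after its values were seen. POSTN had 3 counts pre-treatment and 84222 counts post-treatment in 21189 (0.169 and 3446 CPM), and 1.0 and 473 CPM in 20275, with 379 CPM in the post-treatment library of 21866. In 19832, 22130 and 23004 it was at 1.16, 1.40 and 2.61 CPM before and at 0, 0.785 and 0.431 CPM after, and in 24849 at 13.2 and 28.3 CPM. The log2 fold change of 3.87 had an SE of 2.41. Matrix remodeling genes as a group followed the collagens, with mean changes of 2.20 in 20275 and 3.05 in 21189 and of -0.91 and -1.63 in 19832 and 23004. Tendon markers changed by 3.17 in 20275, 1.55 in 21189, 1.58 in 24849, 0.95 in 22130, -1.15 in 19832 and -2.07 in 23004. Of 8 tendon markers tested, 7 had a fold change above 0, where 46.2% of all genes did, with a median of 1.07. For 2 higher ones unadjusted p lay under 0.05 (1.15% of all genes were higher at that limit). Fibroblast markers changed by 1.14 and 0.97 in 20275 and 21189 and by -2.38 in 23004. In counts of whole tissue, more cells of a type and more RNA per cell cannot be told apart. How much of the sampled tissue was connective tissue or tendon was not tested.

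Of 19 myogenic regulators and satellite cell genes 13 had fold changes below 0, with a median of -0.16 and 1 higher at an unadjusted p under 0.05 (background 1.15%). Their mean change was 0.86 in 21189, 0.38 in 24849 and 0.25 in 20275, and from -0.29 to -0.59 in the other 3 animals. Among single genes, EYA1, a myogenic co-factor, was at 24.1 to 63.8 CPM before and 18.4 to 47.0 CPM after treatment, with the lowest value in 21189. Embryonic and fusion genes had a different pattern. MYH3, the embryonic myosin heavy chain, went from 88.2 to 522 CPM in 20275 and from 69.8 to 2327 CPM in 21189, and was at 31.5 to 114 CPM in the other 6 post-treatment and 51.9 to 194 CPM in all pre-treatment libraries. TMEM8C, the gene of the fusion protein myomaker, was at most at 0.513 CPM in the other libraries before and after treatment and reached 3.92 and 28.3 CPM in these 2. The gelatinase gene MMP9 stood at 5.81 and 32.2 CPM there, against no more than 0.852 CPM elsewhere. The averages over animals remained within error for MYH3 (log2 fold change 0.80, SE 0.90), and those of TMEM8C (3.41, SE 1.15) and MMP9 (2.77, SE 1.26) had an unadjusted p of 0.00834 and 0.0397. At washout MYH3 was at 29.1 to 102 CPM and TMEM8C at no more than 0.550 CPM.

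Contractile genes moved opposite to the matrix in several animals. The mean change of 21 sarcomere and cytoskeleton genes was -1.33 in 21189 and -0.20 in 20275, where collagen genes rose. It was 0.54, 0.58 and 0.27 in 19832, 22130 and 23004, where collagen genes fell. In 24849 it was -0.71, where collagen genes changed by -0.19 and matrix remodeling genes by 0.17. ACTA1, the skeletal actin gene, went from 23559 to 7100.1 CPM in 21189 and from 24203 to 34022 CPM in 22130. Its range over libraries was 23559 to 42331 CPM before and 7100.1 to 39214 CPM after treatment, and its log2 fold change was -0.18 (SE 0.31). The giant spring protein titin, TTN, had a value of -0.13 (SE 0.37). Fast fiber genes had a median of -0.15, with 13 of 15 below 0. MYH1, the IIx myosin, was at 33895 to 98541 CPM before and 13472 to 105204 CPM after treatment (-0.31, SE 0.38), and MYH4, the IIb myosin, had -1.59 (SE 0.78) with 2 of 6 animals higher. The fast-fiber calcium buffer parvalbumin, PVALB, had -0.74 (SE 0.30).

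Slow fiber genes also differed widely between animals. Of 11 genes 10 were above 0, with a median of 0.48. For 1 higher gene unadjusted p lay under 0.05, where 1.15% of all genes were higher at that limit. The mean changes ran from -1.52 in 19832 to 3.87 in 22130. MYH7 (ENSG00000092054), the slow myosin, was at 2.39 CPM in the pre-treatment library of 22130, where the other pre-treatment libraries held 1663 to 4177 CPM. The same animal had 1196 CPM post-treatment. Post-treatment levels ranged from 94.6 CPM in 21866 to 18739.5 CPM in 20456, and 2 of 6 animals were higher, with a log2 fold change of 0.22 (SE 0.93). MYL2, the slow regulatory light chain, was lowest and highest in the same libraries, with 0.998 CPM in 22130 pre-treatment and 4388 CPM in 20456 post-treatment. Without the pre-treatment library of 22130, 448 genes had an unadjusted p under 0.05 and 0 were DE. The part of fiber makeup of each biopsy in these values was not tested. Excitation-contraction genes had a median of -0.25 over 15 genes, 13 of them below 0. CACNB1, a subunit of the muscle calcium channel, was at 328 to 873 CPM before and 198 to 502 CPM after treatment, lower in 6 of 6 animals (log2 fold change -0.67, SE 0.20), and BIN1, a protein of the transverse tubules, was lower in all 6 too (-0.43, SE 0.23).

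Genes of energy use, since muscle can raise energy expenditure, were of interest and had medians near that of all genes. Subunits of complex I (35 genes) had a median log2 fold change of 0.04, those of complexes II to IV (23 genes) 0.11 and the ATP synthase (16 genes) 0.11, with 27, 22 and 15 above 0, against 46.2% of all genes, and none at an unadjusted p under 0.05. Each of these medians was below 0 in at least 1 alternative, the lowest being -0.036 for complex I. All 3 lists had their highest changes in 23004 and 24849 and their lowest in 20275. Complex I changed by 0.55 in 23004 and 0.45 in 24849 and by -0.47 in 20275, and its SD over animals of 0.39 exceeded the mean of 0.04. ATP5A1, the alpha subunit of the ATP synthase, had a 95% interval from -0.52 to 0.61. Fatty acid oxidation genes (23 genes) had a median of 0.04 and pyruvate and TCA cycle genes (27 genes) one of 0.09, none at an unadjusted p under 0.05. ACADVL, the very long chain acyl-CoA dehydrogenase, and HADHB, of the trifunctional protein, had values of 0.02 (SE 0.24) and 0.21 (SE 0.28). Among energy expenditure genes (18 genes, median 0.03) sarcolipin, SLN, which makes the calcium pump use more ATP, was at 615 to 1614 CPM before and 508 to 1902 CPM after treatment (0.02, SE 0.33). UCP3, the mitochondrial carrier of muscle, had -0.35 (SE 0.35), with 3 animals higher and 3 lower. The fitted 95% intervals, with spread pooled over time points, did not include a doubling for SLN or ATP5A1.

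Of 29 genes of glycolysis and glycogen 24 were below 0, where 53.8% of all genes were. Their median was -0.17 and ranged from -0.34 to 0.096 over the alternatives. Unadjusted p lay under 0.05 for 1 in each direction (1.15% of all genes were higher and 2.10% lower at that limit). By animal, the list changed by -1.21 in 21189 and by 0.29 in 22130. GAPDH had -0.20 (SE 0.35), and GBE1, the glycogen branching enzyme, -0.44 (SE 0.20) with 5 of 6 animals lower. Insulin signaling and GLUT4 genes (24 genes) had a median of -0.03, and the glucose transporter gene SLC2A4 was at 355 to 587 CPM before and 125 to 630.5 CPM after treatment (-0.21, SE 0.27). RRAD, a small GTPase, had -0.83 (SE 0.35). Branched-chain amino acid catabolism had a median of -0.07 over 18 genes with none at an unadjusted p under 0.05.

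Protein turnover genes had small medians of opposite sign. Every one of 75 cytosolic ribosomal protein genes had a fold change above 0, where 46.2% of all genes did, with a median of 0.23. At an unadjusted p under 0.05 were 3 of them, where 1.15% of all genes were higher at that limit. The ribosomal list nonetheless differed between animals, with mean changes of 0.95 in 21189, 0.80 in 24849 and 0.25 in 23004 and of -0.15, -0.24 and -0.04 in 19832, 20275 and 22130. Both animals with the largest ribosomal increases were those whose identifiers passed from the first to the last series, and the part of the series in this was not tested. Under the 20 alternative settings the median stayed above 0, from 0.07 to 0.33. Proteasome genes (32 genes) had a median of -0.09, with 26 below 0 and none at an unadjusted p under 0.05. The atrophy ligase gene TRIM63, whose product MuRF1 marks contractile proteins for degradation, was at 242 to 713 CPM before and 164 to 582 CPM after treatment. Its log2 fold change was -0.71 (SE 0.33). TRIM63 was lower in 6 of 6 animals, but hardly so in 24849 (-0.005) and 21189 (-0.064) and most in 22130 (-1.66). The partner ligase FBXO32 had -0.50 (SE 0.27) and was lower in 4. OSGIN1, a target of the antioxidant factor NRF2, was lower in all 6 (-0.55, SE 0.19), while its list of 15 genes had a median of -0.10.

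Secreted factors and receptors of muscle gave single low p-values without a shared direction. IL6, a cytokine released by contracting muscle, was at 0.133 to 1.16 CPM before and 0 to 0.509 CPM after treatment, at most 18 counts in a library, and lower in all 6 animals (-1.84, SE 0.53). FNDC5, the precursor of irisin, was at 38.3 to 145 CPM before and 45.5 to 180.1 CPM after treatment, higher in 5 of 6 animals (0.67, SE 0.20). CHRNE, the adult acetylcholine receptor subunit, had 1.91 (SE 0.71) at no more than 7.70 CPM, and NGFR, a Schwann cell receptor, 1.73 (SE 0.55). Myostatin and activin axis genes (14 genes) had a median of -0.19 and IGF axis genes (10 genes) one of 0.13. Circadian clock genes (18 genes) had a median of -0.14, with BHLHE40 at -0.57 (SE 0.20).

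Markers of other cells differed by biopsy. Adipocyte markers (7 genes) changed by -2.13 in 21189 and by 2.0 in 23004, where ADIPOQ went from 7.00 to 1.02 CPM and from 1.77 to 31.4 CPM, and the pre- and post-treatment libraries of 24849 held 128 and 123 CPM. Summed adipocyte markers took 0.0887% to 0.185% of counts before and 0.0436% to 0.235% after treatment. Within this sum GPD1 was at 703 to 1416 CPM before and 243 to 1671 CPM after. FABP4 was at 33.1 to 481 CPM before and 39.7 to 826 CPM after. GPD1 changed by -2.10 in 21189 and 0.15 in 23004, and the glycolysis gene GAPDH by -2.16 and 0.55. The part of muscle fibers in this share and in the list changes was not tested. Macrophage markers (15 genes, median -0.26) changed by 0.76 and 0.64 in 20275 and 21189 and by -1.44 in 23004. Endothelial markers (11 genes) had a median of -0.09 and smooth muscle markers (10 genes) one of 0.03. Of 4 erythroid markers tested 3 had a fold change above 0. The 1 below 0 had an unadjusted p under 0.05 (2.10% of all genes were lower at that limit). HBB and ALAS2 stood apart in 1 library. HBB, the beta globin gene, was at 7.98 CPM in 22130 before and 4209 CPM after treatment, while the other post-treatment libraries held 16.2 to 104 CPM and the washout libraries 62.7 to 1616 CPM. ALAS2, the heme synthesis enzyme of red cells, was at 0.200 and 67.2 CPM in the same animal. AHSP, another marker of the list, went the other way across libraries. It was at 0.357 CPM in the post-treatment library of 22130 and at 2.17 and 6.53 CPM in the pre-treatment libraries of 19832 and 23004. The largest fitted decrease, of -6.01 (SE 1.48), was that of SCGB1D4, a secretoglobin gene named for its rank, with 149 and 291 counts in the pre-treatment libraries of 19832 and 23004, at most 16 in the other pre-treatment and 3 in the post-treatment libraries.

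Whether the post-treatment change differed between SM and AT was tested over all 48 libraries, which come from overlapping but not identical sets of animals. In AT 8 of 9 animals had both biopsies in 1 identifier series, against 1 of 6 in SM, so that tissue and a change of series cannot be fully told apart in this test or in the pairwise and SD comparisons of the tissues. Of 12322 genes tested in both tissues, 6 differed in the post-treatment change at an adjusted p under 0.05 in edgeR's quasi-likelihood interaction test (0.0487% called), all with the higher value in SM, and 1306 had an unadjusted p under 0.05. The largest difference was that of SLC38A3, a glutamine transporter gene, at 2.98 on the log2 scale (adjusted p = 0.0469). In SM it was at 84.3 to 286 CPM before and 54.3 to 143 CPM after treatment (log2 fold change -0.30, SE 0.27), while in AT it was at 2.24 to 21.8 CPM before and 0.192 to 5.23 CPM after, lower in 9 of 9 animals. LDHB, the heart-type lactate dehydrogenase, differed by 1.65 (adjusted p = 0.0258), with 0.78 (SE 0.25) in SM and -0.83 in AT. In SM LDHB was higher in 4 animals and lower in 19832 (-0.26) and 20275 (-0.38). The slow fiber list was lower in the same animals (-1.52 and -0.44), and the part of fiber makeup in LDHB was not tested. GBP2, an interferon-induced GTPase, differed by 2.04 and the phosphatase gene DUSP14 by 1.40. RBPMS2, of an RNA-binding protein, and FAM131B differed by 1.75 and 1.61, with SM values of 0.04 (SE 0.18) and -0.19 (SE 0.18). All 6 genes fell in AT in every animal, and none passed the test in SM. The number called rested on single animals, at 0 without 20275 or 21189, 1 without 22130, 3 without 21866 and 15 without 20456, whereas scaling by library totals alone gave 0 and the term for identifier series 60.

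Genes DE in AT were also read in muscle, with AT values that are large because they chose the genes. Of 933 genes DE and higher in AT, 891 were tested in SM, where their median log2 fold change was 0.07, against 0.44 in AT, and 561 (63.0%) were above 0. Of 1135 genes lower in AT, 1034 were tested in SM, with a median of -0.05 against -0.58 in AT and 405 (39.2%) above 0, where 46.2% of all genes were. Among the first group 25 (2.81%) and among the second 39 (3.77%) genes had an unadjusted p under 0.05 in SM, close to the 3.25% of all genes. Of the 25, 18 were higher as in AT, and of the 39, 32 were lower as in AT. Among all 410 genes at that limit in SM, 145 (35.4%) were higher and 265 lower. The share with the AT direction was thus above that of all genes in both groups. The medians of both groups lay within 0.1 of the -0.02 of all genes, and the counts are descriptive, since 5 animals gave both biopsies of both tissues and the libraries are therefore not independent.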

How the data were processed

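Poly(A) RNA from gastrocnemius punches was sequenced as stranded paired-end reads of 50 nt. STAR alignment to the rhesus genome build MacaM was done by the authors, who left out libraries with less than 75% uniquely mapped reads and deposited raw counts per gene without normalization. Macaque genes carry human symbols and Ensembl identifiers, and no genome of that build was used here, so no positions are given. The counting tool, its strand setting and the tool versions are not given in the sources used here. Dropping 70 repeat entries with identical counts from 16103 left 16033 genes. Of 24 labelled SM samples, 3 were not analysed here for want of a count column.

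A gene was tested if 10% or more of the 21 SM libraries reached 0.5 CPM (12617 genes). edgeR 4.0.16 in R 4.3.3 gave TMM factors, CPM on TMM-adjusted library sizes, log2 CPM (prior count 2), and robust two-sided quasi-likelihood tests, with terms for animal and time point, over all 3 time points, with Benjamini-Hochberg adjustment over all genes. The difference between tissues was an interaction over all 48 libraries. The scripts were tested on simulated data. Pairing comes from the animal number in the labels. Deviations from time point means of same-animal pre and post libraries had a median r of 0.286 (6 pairs, -0.0501 to 0.520). For 42 pairs of different animals the median was -0.0716 (-0.366 to 0.334), so the 2 ranges overlapped.

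Genes named were the 8 higher and 8 lower with the smallest unadjusted p among those averaging 1 CPM or more with the same sign in all 6 animals, the FGF21 ligand and receptors, genes called by the interaction test, and up to 4 members of each list (the 2 with the highest CPM and the 2 with the smallest p). The members, lists and tests were chosen with earlier results of these data known. Lists were written from general knowledge, and genes missing from the table were left out. Alternatives were DESeq2 1.42.0, voomWithQualityWeights of limma 3.58.1, scaling by library size, other count filters, no animal term, paired libraries only, identifier series or 1 surrogate variable of sva 3.50.0 as a term, other fold change limits, another prior count, each animal left out, and, added after seeing the data, edgeR's earlier quasi-likelihood method and 2 single libraries left out (post-treatment 21189 and pre-treatment 22130). Summaries used Python 3.11.15, pandas 2.3.3, NumPy 2.4.6, SciPy 1.17.1 and matplotlib 3.10.9. Weight loss of single animals was not analysed here.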

Additional observations from a re-analysis of the deposited data

Results flagged for a closer look

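A check of 80 sets of 6 within-animal changes for a single animal far from the others marked 1, where chance alone marks about 1 in 20. Erythroid marker genes changed by a mean of 5.69 on the log2 scale in animal 22130, against -1.56 to 0.66 in the other 5.

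A test of the difference between tissues marked 6 genes whose post-treatment change differed between SM and AT. The SM minus AT differences in log2 fold change were 2.98 for SLC38A3, 1.40 for DUSP14, 2.04 for GBP2, 1.75 for RBPMS2, 1.65 for LDHB and 1.61 for FAM131B, with adjusted p from 0.0258 to 0.0469 in edgeR's quasi-likelihood test. Each kept its sign in the 14 alternatives run for this test, and each missed the threshold in 5 (DUSP14) to 12 (GBP2) of them.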

How the results depend on the processing

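No alternative called a gene DE between post- and pre-treatment SM. The number at an unadjusted p under 0.05, 410, was 649 with voomWithQualityWeights, 264 with at least 10 counts in every library, 677 with identifier series and 936 with 1 surrogate variable as a term, 388 with DESeq2, 329 with library size alone, 556 with no replicate block (pairing by animal left out) and 313 to 517 with an animal left out. Without the post-treatment library of 21189 it was 383. The number of SM minus AT differences, 6, was 0 with library size alone, 3 with no replicate block, 60 with identifier series and 0 to 15 with an animal left out. Signs turned for receptor genes with values near 0. KLB was at -0.13 with no replicate block. KL was at 0.14 with voomWithQualityWeights, 0.060 with library size alone, 0.88 with no replicate block, 0.19 with paired libraries only, 0.55 with identifier series, 0.03 without the post-treatment library of 21189, and -0.28 to 0.24 with an animal left out. FGFR1 was at -0.28 with voomWithQualityWeights, -0.038 with 1 surrogate variable, -0.18 and -0.14 without the post-treatment library of 21189 or the pre-treatment library of 22130, and -0.15 to 0.27 with an animal left out. FGFR3 was at -0.06 without the pre-treatment library of 22130 and -0.075 to 0.36 with an animal left out, and FGFR4 at 0.088 with no replicate block and -0.46 to 0.021 with an animal left out. The cause of these shifts was not tested. The pairing changed no call between SM time points. Under alternatives, 409 values of named genes kept their sign and 22 did not. These values cover only the receptor genes and the genes named for the same sign in every animal with both samples. The latter were chosen for a shared sign, so their kept signs do not show robustness. All 22 reversals fell among the receptor genes, at 1 for KLB, 9 for KL, 7 for FGFR1, 3 for FGFR3 and 2 for FGFR4. Separately, 994 list medians moved by less than the SD over animals, which was wide. Of 50 lists, 40 had a median that changed sign in at least 1 setting, up to 12 of 20 for the mitochondrial ribosome. The macrophage median was at -1.10 with voomWithQualityWeights and the Schwann cell median at -0.17 with at least 10 counts in every library. Intervals were widest for genes below 1 CPM, and the parts of depth and of the spread between animals in this were not tested.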
